A study of Mus musculus with 71 samples.

Results

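The genes described here are 10 genes of transforming growth factor beta (TGF-beta) signalling in whole blood: the ligand Tgfb1, its activator Thbs1, the receptors Tgfbr1 and Tgfbr2, the signal carriers Smad2, Smad3 and Smad4, the inhibitor Smad7, the co-repressor Ski and the induced gene Tgfbi. They were taken by gene symbol from a table of 10508 genes, which holds all 10 of them. The blood came from 71 female Balb/c AnNRj mice, 6 weeks old at inclusion, in a model of systemic sclerosis in which hypochlorous acid (HOCl) is injected into the skin of the back on 5 days a week for 6 weeks. The groups were 11 control mice that received PBS, 12 HOCl mice, and 12 HOCl mice in each group labelled E07, D11, D06 or BPR21. E07 and D11 are monoclonal antibodies (mAb) against galectin-3, a carbohydrate-binding protein, given at 20 mg/kg every 5 days. What the names D06 and BPR21 stand for is not given in the sources used here. Every group except control carried the HOCl induction, and control and experimental mice were housed in separate cages, so a group and its cage cannot be told apart. Levels are the deposited vst values, which are on a log2-like scale and are held for 70 of the 71 mice. HOCl mouse 8 has counts only, so the HOCl group has 11 mice in tests on vst values and 12 in tests on counts.

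TGF-beta is made in a latent form and has to be released before it can act. The active ligand brings the type II receptor Tgfbr2 together with the type I receptor Tgfbr1, which phosphorylates Smad2 and Smad3; these join Smad4 and act on genes in the nucleus. Smad7, itself a gene that the pathway induces, and Ski restrain the signal. In blood, platelets are a large store of latent TGF-beta1 and of thrombospondin-1, the product of Thbs1, and the pathway is best known for driving fibrosis and restraining lymphocytes.

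Of the 10 genes, Thbs1 rose in HOCl mice compared with control mice and fell with E07 compared with HOCl mice, and Tgfbi fell with E07. No other member passed the test in either comparison, where 4.96% and 7.89% of all genes did. With D11, D06 or BPR21 no member passed when compared with HOCl mice, where 0.0571%, 0.133% and 0.638% of all genes did. Tgfbi was lower in these groups too, by about as much as with E07, without passing. A gene passed, or was called, when limma put its adjusted p at 0.05 or below and its change at 1.3-fold or more, with only the 2 compared groups in the fit.

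Per length of exon, the members covered a wide range. Tgfbi had 36.1 ± 15.1 CPM per kilobase of exon (SD, n = 71 mice), where CPM is the count relative to the total count of the mouse, followed by Tgfb1 with 26.7 ± 7.65. Tgfbr2 had 13.7 ± 4.20 and Ski 9.64 ± 2.69 on this scale. Thbs1 stood at 5.77 ± 1.72, Smad4 at 4.97 ± 1.58, Tgfbr1 at 4.25 ± 1.38 and Smad7 at 4.10 ± 1.43. Smad3 (3.06 ± 1.10) and Smad2 (2.38 ± 0.776) were the lowest. Neighbours in this order differed by more than both of their SDs between Tgfb1 and Tgfbr2 and between Ski and Thbs1, and by less elsewhere. Tgfb2 and Tgfb3, the other ligands, are not in the vst table, which leaves out genes with low expression. They had at most 59 and 29 reads in any 1 mouse.

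The members also differed in how much mice of 1 group varied. The SD of vst values within groups was 0.43 for Tgfbi and 0.37 for Thbs1, larger than for 93.4% and 89.0% of all genes. For Tgfbr2 it was 0.15, and only 1.07% of genes had a smaller value. The median over all genes was 0.26. The plot of the members by group shows this spread.

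**Figure D1:**
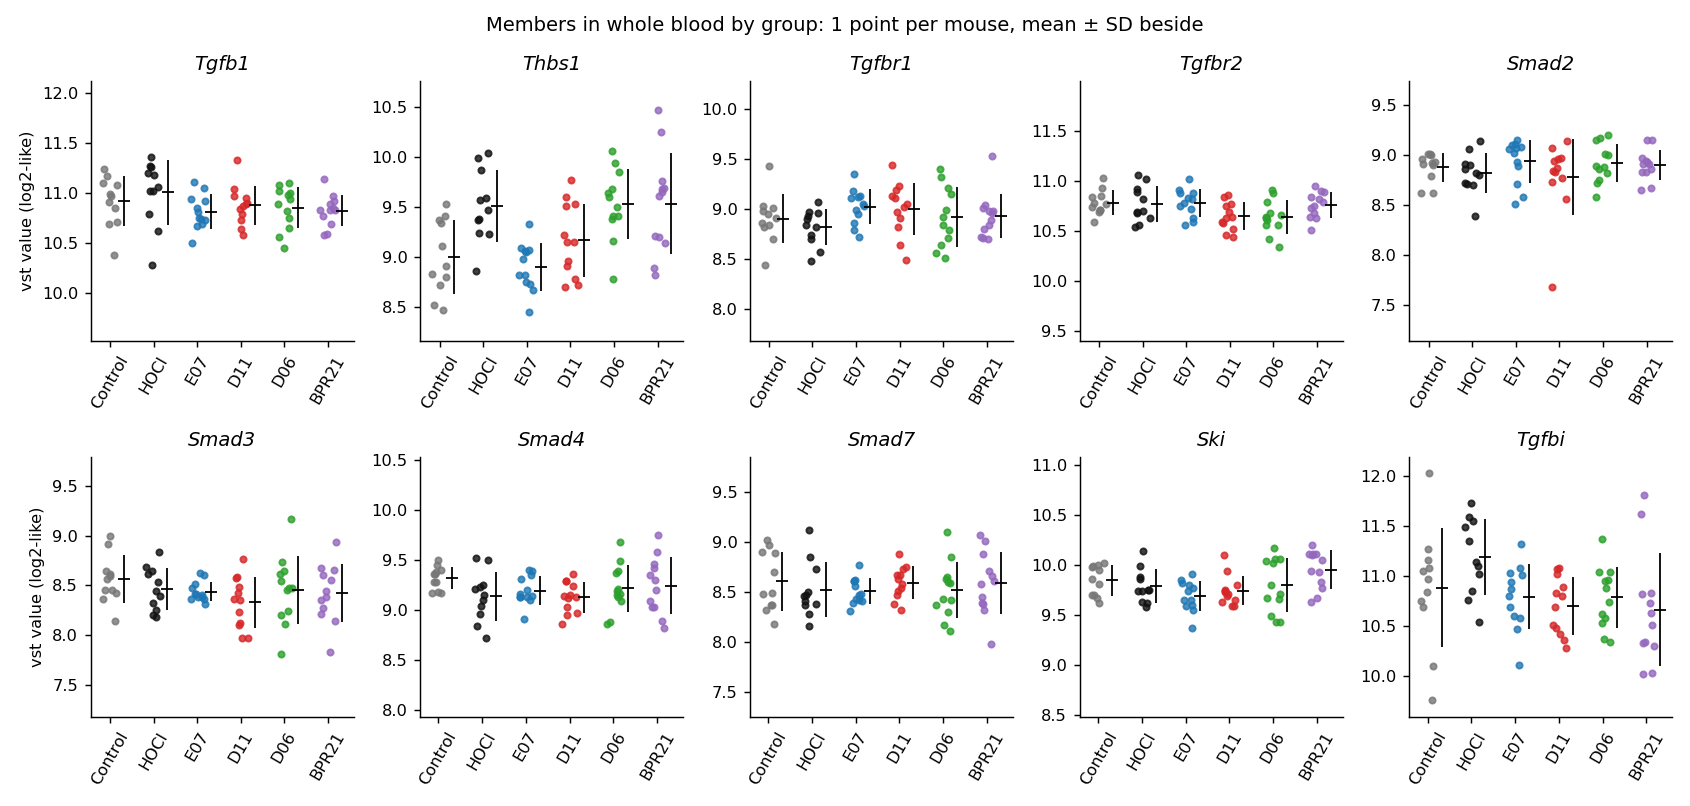
Deposited vst values (log2-like, y axis, the same span of 2.6 units in each panel) of the 10 members in each group (x axis), with 1 point per mouse and the mean ± SD beside the points. Thbs1 lies lower on average in control and E07 mice than in HOCl, D06 and BPR21 mice, with overlap between the groups. The receptors, the Smads and Ski also overlap across the 6 groups.

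Thbs1 (chr2:117941974-117957616, plus strand, GRCm39) encodes thrombospondin-1, a glycoprotein of platelet granules that can release TGF-beta1 from its latent complex. In control mice its vst value had a lowest, median and highest of 8.47, 8.91 and 9.53. In HOCl mice these were 8.86, 9.46 and 10.04, and in E07 mice 8.45, 8.90 and 9.33. The values in D11 mice were 8.70, 9.15 and 9.76, against 8.78, 9.55 and 10.06 in D06 mice and 8.82, 9.63 and 10.47 in BPR21 mice. The groups overlap, but 10 of 11 HOCl mice lay above the control median, 5 of them above every control mouse, and all 12 E07 mice lay below the HOCl median, 6 of them below every HOCl mouse.

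The rise of Thbs1 in HOCl mice was 0.51 on the log2 scale (SE 0.14, 95% interval 0.21 to 0.81, limma adjusted p = 0.0342), a 1.42-fold difference. Thbs1 was 1 of 10 members called in this comparison, where 4.96% of all genes were called. With E07 it fell by 0.61 compared with HOCl mice (SE 0.12, interval -0.85 to -0.37, limma adjusted p = 0.0008), to 0.656 times the HOCl level. In E07 mice 2 of 10 members were called, beside 7.89% of all genes. E07 and control mice differed by -0.10 in Thbs1 (interval -0.34 to 0.15, limma adjusted p = 0.930). The call with E07 held with each of the 23 mice left out in turn, at an adjusted p of at most 0.00191. The call in HOCl against control mice was lost without any 1 of 11 mice, namely control mice 1, 2, 7, 8, 9 and 11 and HOCl mice 6, 9, 10, 11 and 12, at adjusted p values up to 0.0698. On counts with HOCl mouse 8 included, Thbs1 was 0.58 higher in HOCl than in control mice by edgeR (adjusted p = 0.0433), where 5.12% of genes were called, and 0.72 lower with E07 (adjusted p = 0.0006), where 11.2% were. DESeq2 called both as well, beside 6.36% and 12% of genes.

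These calls depend on how the mice are scaled. The vst values rest on size factors. Factors recomputed here from the counts of all 71 mice, by the median of ratios, were 1.29 ± 0.26 (SD, n = 11) in control, 0.936 ± 0.226 (n = 12) in HOCl and 1.28 ± 0.17 (n = 12) in E07 mice, while total counts lay between 11932855 and 15948972 in all 71 mice. With counts divided by each mouse's total instead, the median of all genes moved to -0.47 in HOCl against control and to 0.49 in E07 against HOCl. On that scale Thbs1 differed by 0.15 (limma adjusted p = 0.518) and -0.25 (adjusted p = 0.205), which is 0.62 above and 0.74 below the median of all genes. The share of counts taken by 18 erythroid marker genes moved with the groups, at 6.94% in control, 11.4% in HOCl and 6.50% in E07 mice on average. With the score of this erythroid list in the fit, Thbs1 differed by 0.40 (adjusted p = 0.380) and -0.57 (adjusted p = 0.223). Limma then called 1 of all 10508 genes in each comparison, against 521 and 829 without the score.

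Platelet markers moved with Thbs1. Of 12 platelet markers in the vst table, 5 rose and 0 fell in HOCl compared with control mice, with a median difference of 0.43, and 10 fell with E07 and 0 rose, with a median of -0.50. The summed level of the 13 listed markers was 3762 to 6660 CPM in control, 2029 to 6928 in HOCl and 3823 to 5786 in E07 mice, and none of them, Pf4, Ppbp and Itga2b among them, was at 0 in every mouse of a group. Under total-count scaling the medians of the list were 0.02 and -0.01. With the platelet score in the fit, Thbs1 differed by 0.10 in HOCl against control (limma adjusted p = 0.780) and by -0.24 in E07 against HOCl (adjusted p = 0.264). Limma then called 5 and 505 of all 10508 genes. In whole blood, fewer cells of a type and less RNA per cell cannot be told apart.

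Tgfbi (chr13:56757336-56787375, plus strand, GRCm39) encodes a secreted matrix protein named for its induction by TGF-beta, and monocytes express it strongly. Of the members in the RefSeq promoter table it is the one called in a test, so the 187 bases before its GENCODE start are shown, at chr13:56757149-56757335 of GRCm39 on the plus strand, as an exact match of the RefSeq sequence (build GRCm38.p6). Capitals mark the core of the Smad-binding element, CAGAC or its reverse complement GTCTG:
Tgfbi: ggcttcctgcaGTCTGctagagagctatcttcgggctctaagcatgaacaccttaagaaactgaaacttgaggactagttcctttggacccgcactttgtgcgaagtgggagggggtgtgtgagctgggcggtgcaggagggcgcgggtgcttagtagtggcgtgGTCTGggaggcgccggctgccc
This core occurs 2 times here, and 42.2% of all 32851 promoters of the table hold it on either strand in the 250 bases before the start. Of 7 promoters of 6 members, 3 hold it, those of Tgfbi, Tgfbr1 and Tgfbr2, and those of Tgfb1, Smad3 and Ski do not. The palindrome GTCTAGAC and the longer box AGCCAGACA, which contains the core, are in 0 of the 7, beside 0.167% and 0.301% of all promoters. A match is a run of letters and not a measured site.

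The Tgfbi value in control mice ran from 9.76 through a median of 10.97 to 12.03, the widest range of any group for this gene. In HOCl mice the lowest, median and highest were 10.54, 11.15 and 11.74, and in E07 mice 10.12, 10.84 and 11.32. They were 10.28, 10.75 and 11.09 in D11 mice, 10.35, 10.81 and 11.38 in D06 mice, and 10.02, 10.57 and 11.82 in BPR21 mice. All groups overlap, and the medians of the E07, D11, D06 and BPR21 groups lie below that of the HOCl group. Below the HOCl median lay 11 of 12 E07, 12 of 12 D11, 11 of 12 D06 and 10 of 12 BPR21 mice.

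Tgfbi fell with E07 by 0.40 (SE 0.14, interval -0.68 to -0.12, limma adjusted p = 0.0456), just past both thresholds, and under total-count scaling its sign turned to 0.08 where the median of all genes was 0.49. The call was lost when any 1 of 14 of the 23 mice was left out, HOCl mice 2, 4, 5, 6, 9, 10 and 12 and E07 mice 1, 2, 3, 7, 9, 10 and 12, with adjusted p values up to 0.0852. The difference was -0.49 with D11 (SE 0.13, limma adjusted p = 0.117), -0.41 with D06 (SE 0.14, adjusted p = 0.191) and -0.53 with BPR21 (SE 0.19, adjusted p = 0.186). These 3 values did not pass, although they were of the same size as with E07, and all 4 comparisons use the same HOCl mice. On counts, DESeq2 called Tgfbi also with D11 (-0.58, adjusted p = 0.0108) and D06 (-0.48, adjusted p = 0.0484), while edgeR did not (adjusted p = 0.0540 and 0.0999). In HOCl against control mice the difference was 0.31 (interval -0.08 to 0.71, limma adjusted p = 0.421).

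On the vst scale monocyte markers had lower medians with E07, D11, D06 and BPR21 compared with HOCl mice. In HOCl against control mice 0 of 12 passed, with a median of -0.02 (-0.49 under total-count scaling). Of 12, 3 fell and 0 rose with E07, with a median of -0.28 (0.11 under total-count scaling). The median difference was -0.30 with D11, where 0 passed, -0.26 with D06, where 1 fell, and -0.61 with BPR21, where 5 fell. Their summed level was 771 to 2166 CPM in control, 584 to 1586 in HOCl and 908 to 1477 in E07 mice. It was 596 to 1321 in D11, 520 to 1143 in D06 and 378 to 1250 in BPR21 mice. None of the 12, such as Ctss, Ccr2 and F13a1, was at 0 in every mouse of a group. With the monocyte score in the fit, the Tgfbi difference with E07 was -0.02 (limma adjusted p = 0.968), and 3 of all 10508 genes were called. Of 12 neutrophil markers 4 fell and 0 rose with E07, with a median of -0.46 (-0.02 under total-count scaling), and their part in the Tgfbi result was not tested.

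**Figure D2:**
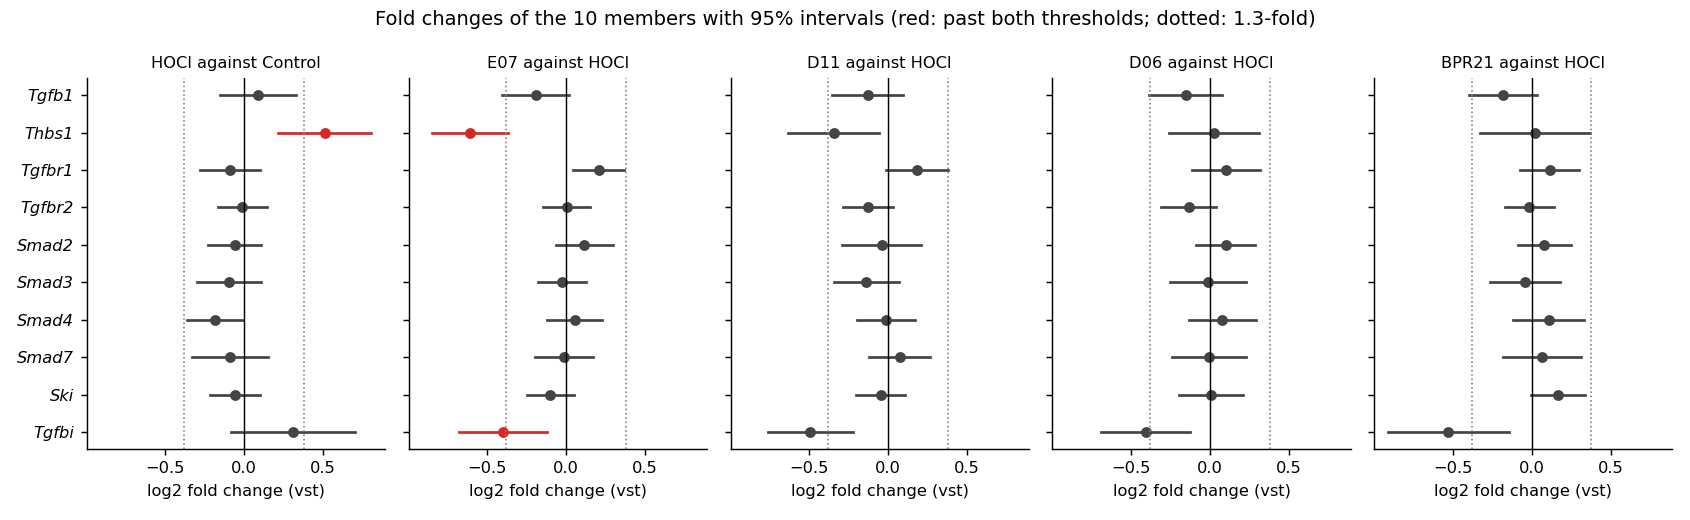
Difference in vst value (log2 fold change, x axis) of each member (y axis) in 5 comparisons, with 95% intervals from limma. Red marks differences past both thresholds, and dotted lines mark a 1.3-fold change in either direction. Thbs1 is past them in HOCl against control and in E07 against HOCl, and Tgfbi in E07 against HOCl.

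The ligand gene Tgfb1 (chr7:25386390-25404506, plus strand, GRCm39) had lowest, median and highest vst values of 10.37, 10.97 and 11.23 in control, 10.28, 11.06 and 11.36 in HOCl and 10.50, 10.78 and 11.11 in E07 mice. These groups overlap over most of their range. Tgfb1 differed by 0.09 in HOCl against control mice (interval -0.15 to 0.33, limma adjusted p = 0.761) and by -0.19 with E07 (interval -0.40 to 0.02, adjusted p = 0.223). With D11, D06 and BPR21 the differences were -0.13, -0.15 and -0.18, with intervals that all include 0. Of 12 mice, 11 lay below the HOCl median with E07, D11 and BPR21, and 10 with D06. HOCl mouse 8, which has counts only, had 208 CPM of Tgfb1, above the 39.4 to 205 of the other 11 HOCl mice.

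The receptors showed little movement. Tgfbr2, the receptor that binds the ligand first, differed by -0.01 in HOCl against control mice (interval -0.17 to 0.14) and by 0.01 with E07 (interval -0.14 to 0.16). All its values in the 70 mice lay between 10.34 and 11.06. Tgfbr1, the kinase that phosphorylates the Smads, had a median of 8.91 in control, 8.85 in HOCl and 9.04 in E07 mice, and 10 of 12 E07 mice lay above the HOCl median. Its difference with E07 was 0.21 (SE 0.08, interval 0.05 to 0.37, limma adjusted p = 0.0737), which did not pass.

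Among the Smads, Smad4, the partner that both receptor Smads need, had the largest difference in HOCl against control mice, -0.18 (SE 0.09, interval -0.36 to -0.0049, limma adjusted p = 0.263). Its lowest, median and highest values were 9.17, 9.36 and 9.50 in control and 8.72, 9.15 and 9.52 in HOCl mice, and 6 of 11 HOCl mice lay below every control mouse while 2 lay above them all. Smad2 and Smad3, the direct substrates of the receptor, differed by -0.06 and -0.10 in HOCl against control, and by 0.12 and -0.03 with E07. Smad2 in D11 mouse 10 was 7.68, from 57 counts, below the 8.39 to 9.20 of the other 69 mice. Smad7, the inhibitory Smad, differed by -0.09 and -0.01 in the same comparisons, with medians of 8.49 in control, 8.46 in HOCl and 8.47 in E07 mice. Ski, the co-repressor that binds Smad complexes on DNA, differed by -0.06 and -0.10.

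For most members the data limit how large a change can be on the vst scale. The 95% interval lay wholly within a 1.3-fold change in either direction for 8 members in HOCl against control mice, and for 7 in E07 against HOCl. The exceptions were Thbs1 and Tgfbi in both, with Tgfb1 added for E07. The numbers were 7 with D11, 8 with D06 and 8 with BPR21. Under total-count scaling, 7 members were lower in HOCl than in control mice and the same 7, both receptors, the Smads and Ski, were higher with E07, with differences of -0.70 to -0.49 and 0.38 to 0.75. On that scale 48.9% of all genes were lower in the first comparison and 62.5% higher in the second. Relative to the median of all genes these members differed by -0.23 to -0.02 and by -0.11 to 0.26.

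With D11, D06 or BPR21, limma called 0 of 10 members compared with HOCl mice, beside 0.0571%, 0.133% and 0.638% of all genes. At an unadjusted p under 0.05 there were 2, 1 and 1 members, beside 1483, 1338 and 1474 of 10508 genes. edgeR also called 0 in each, beside 0.409%, 0.533% and 0.857% of genes, and DESeq2 called 1, 1 and 0, beside 1.44%, 1.5% and 2.43%. Thbs1 differed by -0.34 with D11 (interval -0.63 to -0.05, limma adjusted p = 0.276), by 0.02 with D06 (interval -0.26 to 0.31) and by 0.02 with BPR21 (interval -0.33 to 0.37). Ski was 0.17 higher with BPR21 (interval -0.01 to 0.34), and 10 of 12 mice lay above the HOCl median.

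Compared with control mice, limma called 0 members in E07, D11 and BPR21 mice and 1 in D06 mice, beside 0.00952%, 0.0761%, 0.504% and 7.88% of all genes. The counts at an unadjusted p under 0.05 were 1, 2 and 1 for the first 3 groups, beside 799, 1697 and 2095 of 10508 genes. In these groups edgeR called 0 members in each, beside 0.00952%, 0.0952% and 1.78% of genes. DESeq2 called 0, 0 and 1 members there, beside 0.19%, 1.66% and 4.96% of genes. The member called in D06 mice was Thbs1, 0.53 higher than in control mice (SE 0.14, limma adjusted p = 0.0127), with 11 of 12 mice above the control median. In BPR21 mice it was higher by the same 0.53 with a larger error (SE 0.17, adjusted p = 0.105). In D11 mice the difference was 0.17 (interval -0.13 to 0.46). Of 12 platelet markers, 8 rose in D06 compared with control mice, with a median of 0.56, and of 18 erythroid markers all 18 rose, with a median of 1.20. Under total-count scaling Thbs1 was not called in D06 against control mice (0.09, limma adjusted p = 0.635), while the other 9 members were called lower, beside 64.3% of all genes, and the median of all genes was -0.57.

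The E07, D11, D06 and BPR21 groups were then compared with each other, since a call with one and not another does not show a difference between them. Thbs1 was lower in E07 than in D06 mice by 0.63 (SE 0.12, limma adjusted p = 0.0003) and lower in E07 than in BPR21 mice by 0.63 (SE 0.15, adjusted p = 0.0174), beside 9.76% and 7.26% of all genes called. All 12 E07 mice lay below the median of either group. The mean platelet score was -0.75 (SD 0.54) in E07, 0.51 (SD 0.73) in D06 and 0.42 (SD 1.03) in BPR21 mice, and its part in these differences was not tested. Under total-count scaling neither difference was called, at -0.19 from D06 mice (adjusted p = 0.209) and -0.35 from BPR21 mice (adjusted p = 0.0427), the latter under the fold threshold. On that scale the other 9 members were called higher in E07 than in D06 mice and 6 of them higher in E07 than in BPR21 mice, beside 71.3% and 44.4% of all genes, with a median of all genes of 0.59 and 0.41. Between E07 and D11 mice it differed by -0.26 (interval -0.51 to -0.02, adjusted p = 0.191), which did not pass where 4.57% of genes did, and 11 of 12 E07 mice lay below the D11 median. Between D11 and D06 and between D11 and BPR21 the differences were -0.37 and -0.36 (adjusted p = 0.779 and 0.825). Tgfbi differed by less than 0.13 in all 6 of these pairs, with intervals within -0.33 to 0.48. Ski was 0.26 lower in E07 than in BPR21 mice (limma adjusted p = 0.0288), under the fold threshold.

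Across all 6 groups, 1 of 10 members differed by limma's F test at an adjusted p of at most 0.05, beside 18.3% of all genes. It was Thbs1 (adjusted p = 0.000435), followed by Ski (0.111), Tgfbi (0.147) and Tgfbr2 (0.195), which did not pass. The other 6 members had adjusted p values of 0.445 to 0.905.

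Other genes of the pathway were read from a list of 90, of which 65 are in the vst table. In HOCl against control mice 3 of 65 rose and 0 fell, beside 4.79% and 0.171% of all genes, and the median difference of the list was 0.04 against -0.02 for all genes. The share of the list that rose was close to that of all genes, so the 3 are named only as a description. Usp15 and Usp4, proteases that can remove ubiquitin from the type I receptor, rose by 1.06 (SE 0.27, limma adjusted p = 0.0172) and 0.70 (SE 0.16, adjusted p = 0.0103). Wwp2, a ubiquitin ligase that binds Smads, rose by 0.59 (SE 0.14, adjusted p = 0.0124). The list's other 8 ubiquitin ligases and proteases did not pass. Under total-count scaling the count was 1 higher and 26 lower, beside 3.11% and 48.9% of all genes.

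With E07, 8 of the 65 fell and 1 rose compared with HOCl mice, beside 7.01% and 0.876% of all genes, with a list median of -0.04 against 0.02. Under total-count scaling 34 were higher and 3 lower, beside 62.5% and 3.09% of all genes. Among those that fell were Usp15 by 1.19, Usp4 by 0.83 and Wwp2 by 0.64, and all 12 E07 mice lay below the HOCl median for each. Usp15 had a lowest, median and highest value of 10.46, 11.76 and 13.43 in control, 11.67, 12.99 and 14.14 in HOCl and 11.09, 11.56 and 12.51 in E07 mice. Zfyve9, also named SARA, which presents Smad2 and Smad3 to the receptor, fell by 0.49 (SE 0.09, limma adjusted p = 0.0006), and Tab2, an adaptor of the kinase TAK1, by 0.39 (SE 0.10, adjusted p = 0.0070).

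The remaining genes that moved with E07 act in the nucleus. Fos, a subunit of the AP-1 transcription factor that works with Smads, fell by 1.38 (SE 0.29, limma adjusted p = 0.0016), the largest difference of the list. Of 14 known transcriptional targets, 2 fell and 1 rose. Tsc22d1, first found as a TGF-beta-stimulated transcript, fell by 0.53 (SE 0.14, adjusted p = 0.0085), and Tsc22d3, which glucocorticoids induce, by 0.80 (SE 0.20, adjusted p = 0.0066). Id3, an inhibitor of helix-loop-helix factors that B cells express, rose by 0.64 (SE 0.12, adjusted p = 0.0006), and its lowest, median and highest values were 7.23, 8.17 and 8.67 in HOCl and 8.36, 8.73 and 8.98 in E07 mice. Of 10 B cell markers, 8 also rose with E07, and of 18 erythroid markers 17 fell. The part of the B cell markers in these results was not tested. With the erythroid score in the fit, limma called 0 of the 65 in either comparison, and 1 of all genes in each. With D11, D06 and BPR21 limma called 0 of the 65, beside 6, 14 and 67 of 10508 genes. At an unadjusted p under 0.05 there were 9, 6 and 8 of the 65, beside 1483, 1338 and 1474 of 10508. Of the 65, edgeR called 0, 0 and 1, beside 43, 56 and 90 of 10501 genes, and DESeq2 called 1, 1 and 3, beside 151, 158 and 255.

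Markers of 8 blood cell types were compared with the members mouse by mouse. A score averaged the z-scores of a list's markers in each mouse, and the deviations of 70 mice from their group means were correlated by permutation within groups, giving 80 pairs of a member and a list. By Pearson's r 14 pairs passed an adjusted p of 0.05, and 9 of them also by Spearman's rho. Under total-count scaling 7 of the 14 had the other sign.

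Thbs1 followed the platelet score, with r = 0.76 and rho = 0.77, both at the smallest p that the permutations can give (1e-05, adjusted p = 0.0002). Without the 2 mice farthest from the median score r was 0.75, and under total-count scaling 0.73. Tgfbi followed the monocyte score with r = 0.74 and rho = 0.70 (permutation p = 1e-05 and adjusted p = 0.0002 for both), and r was 0.71 without the 2 farthest mice and 0.88 under total-count scaling. Its r with the neutrophil score was 0.66 (rho = 0.65, adjusted p = 0.0002 for both by permutation), and 0.73 under total-count scaling. Tgfbi ran against the T cell score (r = -0.57, rho = -0.58, permutation adjusted p = 0.0002 for both). Thbs1 ran against the B cell score (r = -0.49, rho = -0.45, permutation adjusted p = 0.00288 and 0.00493). Under total-count scaling the r values of these 2 pairs were 0.36 and 0.014.

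**Figure D3:**
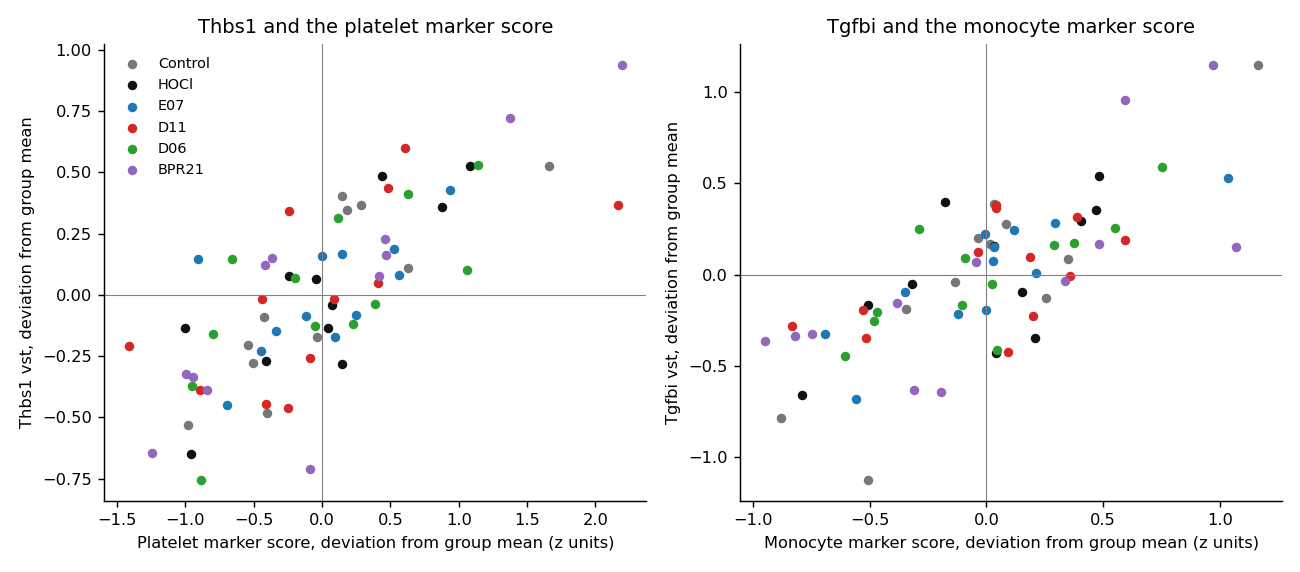
Deviation of each of 70 mice from its group mean for the platelet score (x axis, z units) and Thbs1 (y axis, vst units) on the left, and for the monocyte score and Tgfbi on the right, coloured by group. Both pairs rise together, with r = 0.76 and r = 0.74.

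Tgfb1 had weaker relations with the monocyte score, r = 0.39 (rho = 0.41, permutation adjusted p = 0.00937 and 0.0056), and with the platelet score, r = 0.36 (rho = 0.36, adjusted p = 0.0206 and 0.0285). Smad7 ran against the monocyte score (r = -0.43, rho = -0.46, permutation adjusted p = 0.00937 and 0.0032), but r was 0.23 under total-count scaling. The negative r of Smad2 with the platelet score, -0.35, was -0.14 without the 2 farthest mice and rests on them. Tgfbr2, Smad3 and Smad4 passed with none of the 8 lists by permutation. Their r values were between -0.24 and 0.29.

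**Figure D4:**
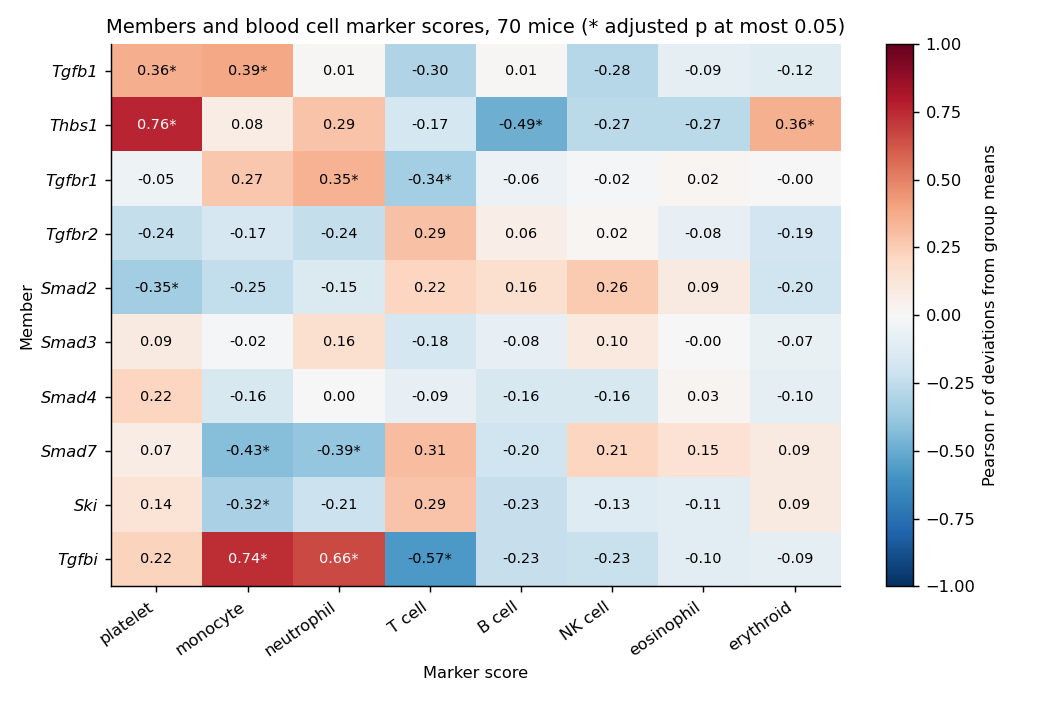
Pearson's r between the deviations from group means of each member (rows) and each marker score (columns) over 70 mice, with the value printed in each cell and an asterisk where the adjusted permutation p is at most 0.05. Thbs1 with platelets (0.76), Tgfbi with monocytes (0.74) and Tgfbi with neutrophils (0.66) have the largest values.

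Genes of the whole table whose within-group deviations were among the most like those of a member are given as a description, over 70 mice that share library depth and scaling. For Thbs1 they were Tpm4 (r = 0.81), Prkar2b (0.79) and Ppbp (0.77), the last a platelet chemokine. For Tgfbi they were Spi1, the myeloid transcription factor PU.1 (r = 0.90), and Fgr (0.90). Tgfb1 was most like Flna (0.78), Arhgdia (0.78) and Actb (0.76), genes of the actin cytoskeleton. Ski was most like the T cell gene Cd4 (0.62), Smad7 like Als2cl (0.67) and Smad2 like Dhx36 (0.65). With the score of all 12 T cell markers, the r of Ski was 0.29 and did not pass (permutation adjusted p = 0.093). With the monocyte score the r of Ski was -0.32 (permutation adjusted p = 0.0469, and 0.156 for rho). The closest genes to Tgfbr2 (Srebf2, 0.56), Smad3 (Prpf31, 0.53) and Smad4 (Tmem127, 0.48) were less alike. Among the members themselves, 2 of 45 pairs had r above 0.5 in either direction, Tgfb1 with Tgfbi (0.57) and Tgfbr2 with Ski (0.52), and the median over all pairs was 0.09. Smad7 and Tgfbi had the lowest value, -0.43.

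**Figure D5:**
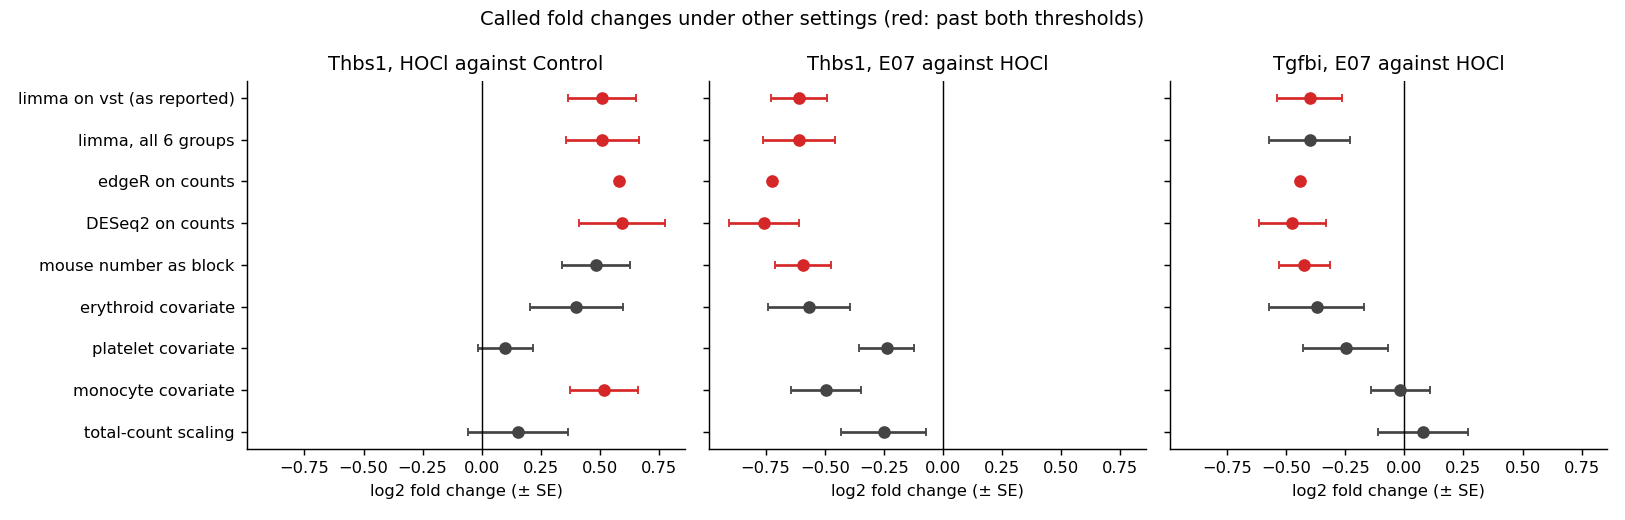
Log2 fold change (x axis) of the 3 called differences under 9 settings (y axis), with SE where the tool gives one (edgeR does not). Red marks values past both thresholds. Thbs1 in HOCl against control mice runs from 0.10 with the platelet score in the fit to 0.59 with DESeq2, and Tgfbi with E07 from -0.47 with DESeq2 to 0.08 under total-count scaling.

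Markers of platelets, monocytes, neutrophils, T, B and NK cells, eosinophils and red cell precursors were measured in every group, with 6 to 18 genes of each list in the vst table. Of 6 fibroblast markers 0 were in the vst table, their summed level being at most 20.6 CPM in any mouse. Of 5 endothelial markers 1 was, Pecam1, and the summed level of the 5 was 60.7 to 283 CPM.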

How the data were processed

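Whole blood RNA of 71 mice was sequenced after poly A selection and globin depletion. Groups were taken from sample titles, since another label field marks control mice as HOCL too. The authors trimmed adaptors (Cutadapt), aligned reads to mm39 (STAR) and deposited raw counts per gene (FeatureCount) for 55416 genes. They also deposited vst values on a log2-like scale (DESeq2) for 10508 protein-coding genes and 70 mice. The annotation release is not given in the sources used here. Columns without a sample numbered 0. The genes and lists were chosen with earlier results of these data known.

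Fits of 2 groups in limma 3.58.1 (R 4.3.3) tested the vst values, with Benjamini-Hochberg adjustment over all genes. The thresholds were an adjusted p of 0.05 and a 1.3-fold change. Counts of 10501 vst genes with 1 matching row were compared with edgeR 4.0.16 (glmQLFTest, TMM) and DESeq2 1.42.0. Total-count scaling used log2(CPM + 1). Correlations used two-sided permutation within groups (100000 resamples, Python 3.11). Named pathway genes are those past both thresholds in HOCl against control or E07 against HOCl, at most 8 per direction; for each marker list up to 3 genes with the highest mean, and for each member up to 3 of the most alike, some of which are not reported here. Coordinates and exon lengths are from GENCODE vM39. Total counts of 11932855 to 15948972 per mouse (median 13719277) limit precision for low genes.

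On data simulated for HOCl against control (10501 genes, 200 changed), limma recovered 37% of 1.5-fold and 79% of 2-fold changes with 6 false calls, so a missed call does not show that a gene did not change. Nothing says which mice shared a library batch. p-values measure the spread between mice of 1 experiment.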

Additional observations from a re-analysis of the deposited data

Results flagged for a closer look

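The Thbs1 level in E07 mice differed from that in D06 and in BPR21 mice by the direct test between these groups. Thbs1 was lower in E07 than in D06 mice by 0.63 on the log2 scale (-0.63, limma adjusted p = 0.0003) and lower in E07 than in BPR21 mice by the same amount (-0.63, limma adjusted p = 0.0174), in 12 of 12 E07 mice against the median of either group. Under total-count scaling neither was called, at -0.19 (limma adjusted p = 0.209) and -0.35 (adjusted p = 0.0427, under the fold threshold). On that scale the median of all genes was 0.59 and 0.41. There, 9 and 6 other members were called higher in E07 mice, beside 71.3% and 44.4% of all genes. These comparisons were added after the data were seen. The mean platelet score was -0.75 in E07, 0.51 in D06 and 0.42 in BPR21 mice, and its part in these Thbs1 differences was not tested. No other member differed past both thresholds in the 6 comparisons between the E07, D11, D06 and BPR21 groups on vst values.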

How the results depend on the processing

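Counts of called members moved most with scaling. Under total-count scaling 7 members were called in HOCl against control, 7 in E07 against HOCl and 9 in D06 against control. Beside them, 5459, 6882 and 7039 of all 10501 genes were called. In the first 2 of these comparisons 27 of 65 pathway genes (1 higher, 26 lower) and 37 of 65 (34 higher, 3 lower) were called on that scale. There, 9 members differed across groups by limma's F test, beside 7870 of 10501 genes, and 70 pairs of a member and a marker score passed. The members called in HOCl against control came to 0 with the erythroid or the platelet score as covariate, beside 1 and 5 of 10508 genes. They also came to 0 with edgeR after its own filter on all genes, beside 482 of 12856. In E07 against HOCl they came to 0 with the erythroid, platelet or monocyte score, beside 1, 505 and 3 of 10508 genes. With all 6 groups in one fit 1 was called there, beside 681 of 10508. Leaving out 1 mouse at a time gave 0 to 1 members in HOCl against control and 1 to 2 in E07 against HOCl, and 0 for the other 3 comparisons. These fits called 380 to 676 and 747 to 917 of 10508 genes in the first 2. In D11, D06 and BPR21 against HOCl they called 2 to 29, 0 to 69 and 36 to 91. Pathway genes called came to 0 with the erythroid or the platelet score in HOCl against control and with the erythroid or the monocyte score in E07 against HOCl, beside the same few genes. With DESeq2 they came to 14 in the latter, beside 1261 of 10501 genes. For BPR21 against HOCl they came to 2 with all groups in one fit, 1 with edgeR, 3 with DESeq2 and 2 with the erythroid score. These settings called 148, 90, 255 and 247 of all genes. DESeq2 called 1 member and 1 pathway gene for D11 and for D06 against HOCl, and 1 member for BPR21 against control, as did all 6 groups in one fit. Of all 10501 genes, DESeq2 called 151, 158 and 521 in these 3 comparisons. The fit of all 6 groups called 406 of 10508 genes in BPR21 against control.

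Mouse numbers were not taken to pair the mice, since in none of 9 comparisons were all pairs of same-numbered mice correlated above 0.1 in their deviations. The mean correlation ran from 0.0100 in D06 against HOCl to 0.146 in E07 against control, where 7 of 11 pairs were over 0.1, and was 0.048 in HOCl against control, with 4 of 10. In each of the 9 comparisons it was above the mean for mice with different numbers, which ran from -0.0097 to 0.0005. This check cannot settle whether the numbers mark a block. With mouse numbers entered as a replicate block, 0 members and 0 pathway genes were called in HOCl against control (Thbs1 adjusted p = 0.0974 by limma), beside 85 of 10508 genes. In BPR21 against control 1 member was called, beside 534 of 10508. Tgfbr2 turned to 0.0020 in HOCl against control and -0.0062 in E07 against HOCl. Pathway genes called against control went from 0 to 3 in BPR21 and from 0 to 1 in E07 mice, where all genes called went from 53 to 534 and from 1 to 13. The block moved no other count of members or pathway genes by over 1.5 times in the 9 comparisons with HOCl or control mice.

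Differences of some members turned their sign under another setting, and not all of these were near 0. Under total-count scaling these were, in HOCl against control, Tgfb1 (-0.39) and Tgfbi (-0.15); in E07 against HOCl, Tgfb1 (0.30), Smad3 (0.45), Smad7 (0.47), Ski (0.38) and Tgfbi (0.079); in D11, Smad2 (0.042), Smad4 (0.092) and Ski (0.051); in D06, Thbs1 (-0.059) and Ski (-0.082); and in BPR21, Tgfbr2 (0.067) and Smad3 (0.013). With DESeq2 and edgeR they were Smad7 in E07 (0.023 and 0.055), Smad3 (0.037 and 0.032) and Smad7 (0.074 and 0.071) in D06, and Tgfbr2 in BPR21 (0.012 and 0.018). With the erythroid score they were Tgfbr2 (0.028), Smad3 (0.044) and Ski (0.0060) in HOCl against control. With the platelet score, chosen after seeing the data, they were Tgfb1 (-0.053) and Tgfbr2 (0.072) in HOCl against control, Tgfb1 (0.0074), Tgfbr2 (-0.070) and Smad7 (0.051) in E07, Thbs1 (-0.076), Smad7 (0.019) and Ski (-0.0034) in D06, and Thbs1 (-0.054) and Tgfbr2 (0.0011) in BPR21. With the monocyte score, also chosen after seeing the data, they were Tgfbr2 (-0.049) and Smad2 (-0.067) in E07, Smad7 (-0.026) in D11, Smad3 (0.027) and Ski (-0.16) in D06, and Thbs1 (-0.23), Smad2 (-0.048), Smad4 (-0.0020), Smad7 (-0.28) and Tgfbi (0.23) in BPR21. Of the 450 comparisons of a member under another setting, 378 kept their direction and their side of the thresholds. The cause of these changes was not tested.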
